A study of Mus musculus with 4 samples.

Results

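Histone genes were followed in RNA sequencing of regulatory T cells (Treg cells) sorted from mouse spleen. Treg cells are CD4 T cells that hold immune responses in check and are defined by the transcription factor Foxp3. Every row of the deposited count table listed as protein coding with a histone symbol was taken (H1f, H2a, H2b, H3c, H3f or H4c followed by the matching letter or number, or the older Hist1h to Hist4h names). This gave 72 of 20837 genes in the table, or 72 of 16328 listed as protein coding. They comprise 62 replication-dependent genes of the histone clusters, 9 single variant genes outside the clusters, and the testis linker histone gene H1f6 of the Hist1 cluster. Of the 62, 5 are H1 genes, 16 H2A, 17 H2B, 11 H3 and 13 H4, and 49 lie in the Hist1 cluster on chromosome 13, 10 in Hist2 on chromosome 3, 2 in Hist3 on chromosome 11 and 1 in Hist4 on chromosome 6. One of the H2B genes, H2bu1-ps, is listed as protein coding in the table and as a transcribed pseudogene by RefSeq. The gene symbols do not take in macroH2A or CENP-A, which are histone variants with other names.

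Both groups carry Foxp3YFP-Cre, a Cre recombinase expressed from the Foxp3 gene. The WT group (2 libraries) has intact Kmt2d alleles (Kmt2d+/+), and the cKO group (2 libraries) has loxP-flanked alleles (Kmt2d fl/fl) that Cre can delete in Foxp3-expressing cells. Kmt2d encodes a histone H3 lysine 4 methyltransferase, and the comparison asks how the Treg transcriptome differs without it. The labels used here give neither the age of the mice nor whether each library came from its own mouse. What the p-values measure is thus a spread among 4 libraries that could be technical. The extraction protocol in the labels describes macrophages grown from bone marrow of a different knockout. That text is at odds with the labels for tissue, cells and genotype, and the groups here follow the latter.

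The 4 libraries held 28442416 to 35560491 counts, so 1 read corresponds to 0.0288 to 0.0344 CPM (counts scaled to library size, with TMM factors), and 3 counts, the limit that a count of 0 allows, to 0.0864 to 0.103 CPM. Kmt2d itself measured 721 and 704 CPM in WT and 836 and 793 CPM in cKO. Counts over the whole gene were thus not lower in the libraries labelled cKO, and a count that includes undeleted exons does not check the deletion. Foxp3 measured 278 and 250 CPM in WT and 170 and 180 CPM in cKO.

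Replication-dependent histone genes supply the proteins that package newly made DNA, and they are transcribed in S phase from clusters of many near-identical copies. Their mRNAs classically have no introns and no poly(A) tail and end instead in a short stem-loop, which the protein SLBP binds. Single variant genes encode replacement histones such as H3.3 and H2A.Z, which are placed in chromatin throughout the cell cycle, and their mRNAs have poly(A) tails like those of other genes and often introns. In GENCODE the H2A.Z genes, H3f3a, H3f3b and H2aj are spliced, while H1f0, H1f10, H1f9 and H3f3c have a single exon. Some replication-dependent genes also have spliced models there, H2bc4 and H2bc6 with up to 2 exons and H2bc23 and H2bc24 with up to 3. The sources used here do not name the library kit or any selection for poly(A) tails. The level of a replication-dependent gene below is therefore its level in these libraries and not the amount of its mRNA in the cells.

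The stem-loop is shown first, because it is a feature by which the classes classically differ. Genes were assigned to the classes by symbol and not by the stem-loop. Each line gives the transcript sequence, 5′ to 3′ on the strand of the gene, from the GENCODE M21 transcripts (mm10), with the 6-base stem, the 4-base loop and the closing stem in capitals.
H1f2: aaaGGCTCTTTTCAGAGCCaccac
H2bc27: aaaGGCTCTTTTCAGAGCCacctt
H2bc6: aaaGGCTCTTTTCAGAGCCaccca
H4c8: aaaGGCCCTTTTCAGGGCCgccca
H4c9: aaaGGCCCTTTTTAGGGCCaccac
H2ac20: aaaGGCTCTTTTTAGAGCCaccaa
The stem-loop begins 25 bases after the stop codon in H1f2, 29 in H2bc27, 30 in H2bc6, 32 in H4c8, 31 in H4c9 and 22 in H2ac20. A search of the first 100 bases after the stop for a loop of TTTC closed by at least 5 of 6 stem pairs found it in 30 of the 44 replication-dependent genes whose model reached at least 60 bases past the stop. It found none in 8 single variant genes and a match in 0.432% of 20134 other protein-coding genes. A broader search, chosen after the first result was seen (any 4-base loop, all 6 pairs), found 40 of the 44, again none of the 8, and 5.88% of the other genes. H4c9 and H2ac20 were found by the broader search alone. The 4 replication-dependent genes without a match under either search are H2bc21, H2bc4, H2bc23 and H2bc24. Shorter models of H2ac24 and H4c17 also held it. The commonest form, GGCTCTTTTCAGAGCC, was found in 23 genes and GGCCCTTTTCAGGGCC in 7.

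The 300-base promoter windows of RefSeq (250 bases before to 50 after the start, GRCm38.p6) were searched on both strands, with an entry for 66 of the 72 genes. H2bc21, H2bc4, H3c1, H3c7, H2bu1-ps and H4c14 had none. The octamer ATTTGCAT, the sequence known from H2B promoters as the site of Oct-1, was in 11 of 56 replication-dependent genes, 19.6% against 1.97% of 27025 genes. It was in 6 of 14 H2B and 5 of 16 H2A windows and in no H1, H3 or H4 window. Of the 9 single variant genes, 1 had it, H3f3b. Its surroundings are shown for H2bc6, an H2B gene that rose in cKO, for H2bc8, an H2B gene that did not pass the test, for H2ac6, whose window lies between it and the divergent gene H2bc4, which rose, and for H3f3b, which fell. The octamer is in capitals, and it reads on the opposite strand in H2ac6 and H3f3b.
H2bc6, chr13:23585978-23586077, minus strand: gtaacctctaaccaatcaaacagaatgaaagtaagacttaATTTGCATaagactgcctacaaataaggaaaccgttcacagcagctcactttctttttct
H2bc8, chr13:23571301-23571399, plus strand: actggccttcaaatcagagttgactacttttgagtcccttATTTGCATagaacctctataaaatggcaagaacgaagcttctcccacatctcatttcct
H2ac6, chr13:23684030-23684129, minus strand: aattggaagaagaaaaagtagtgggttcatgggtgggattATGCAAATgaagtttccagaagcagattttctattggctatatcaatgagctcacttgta
H3f3b, chr11:116024519-116024618, minus strand: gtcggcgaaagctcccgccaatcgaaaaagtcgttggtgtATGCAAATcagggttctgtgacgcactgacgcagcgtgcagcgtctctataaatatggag
The octamer begins 67 bases before the start in H2bc6, 59 in H2bc8, 130 in H2ac6 and 74 in H3f3b. H2bc6 has a second start listed, and that window holds no octamer. The TATA box TATAAA was in 55.4% of the 56 windows against 15.7% of all genes, and the CCAAT box CCAAT in 83.9% against 41.1%. All H1, H2A, H2B and H3 windows held CCAAT, but only 3 of 12 H4 windows. The H1 box AAACACA was in 4 of 5 H1 windows against 8.22% of all genes, and an E2F-like site (TTTGGCGC or TTTCGCGC) in 14.3% of the 56 against 0.929%. A match is a description of these letters and not evidence of binding.

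Replication-dependent genes were low in these libraries and single variant genes high. The 62 replication-dependent genes ranged from 0.00724 to 13.5 CPM in the mean over the 4 libraries, with a median of 0.187. A total of 17 had at least 1 library at 0 counts and 14 had under 10 counts in all, so most of them are measured by a handful of reads. Only 5 reached 1 CPM: H1f2 (a main linker histone), H2bc21, H2bc4 and H2bc27 (H2B) and H4c9 (H4). These 5 supplied 68.0% to 73.9% of the replication-dependent CPM in a library. The 9 single variant genes ranged from 0.00724 to 965 CPM, and 7 reached 1 CPM. On the scale of CPM per kb of exon the 6 highest genes were again single variant genes, with H3f3b at 324, H2az1 at 182, H3f3a at 118, H2az2 at 28.5, H2aj at 22.5 and H1f0 at 21.2. The highest replication-dependent genes on that scale followed, H1f2 at 8.63, H2bc27 at 5.28, H4c9 at 5.21, H2bc4 at 4.50 and H2bc21 at 2.72. H2bc27 and H4c9 lie too close together to be ordered. The testis gene H1f6 had 1 count, in WT 2, and the spermatid linker histone gene H1f9 had 1, in cKO 2.

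**Figure D1:**
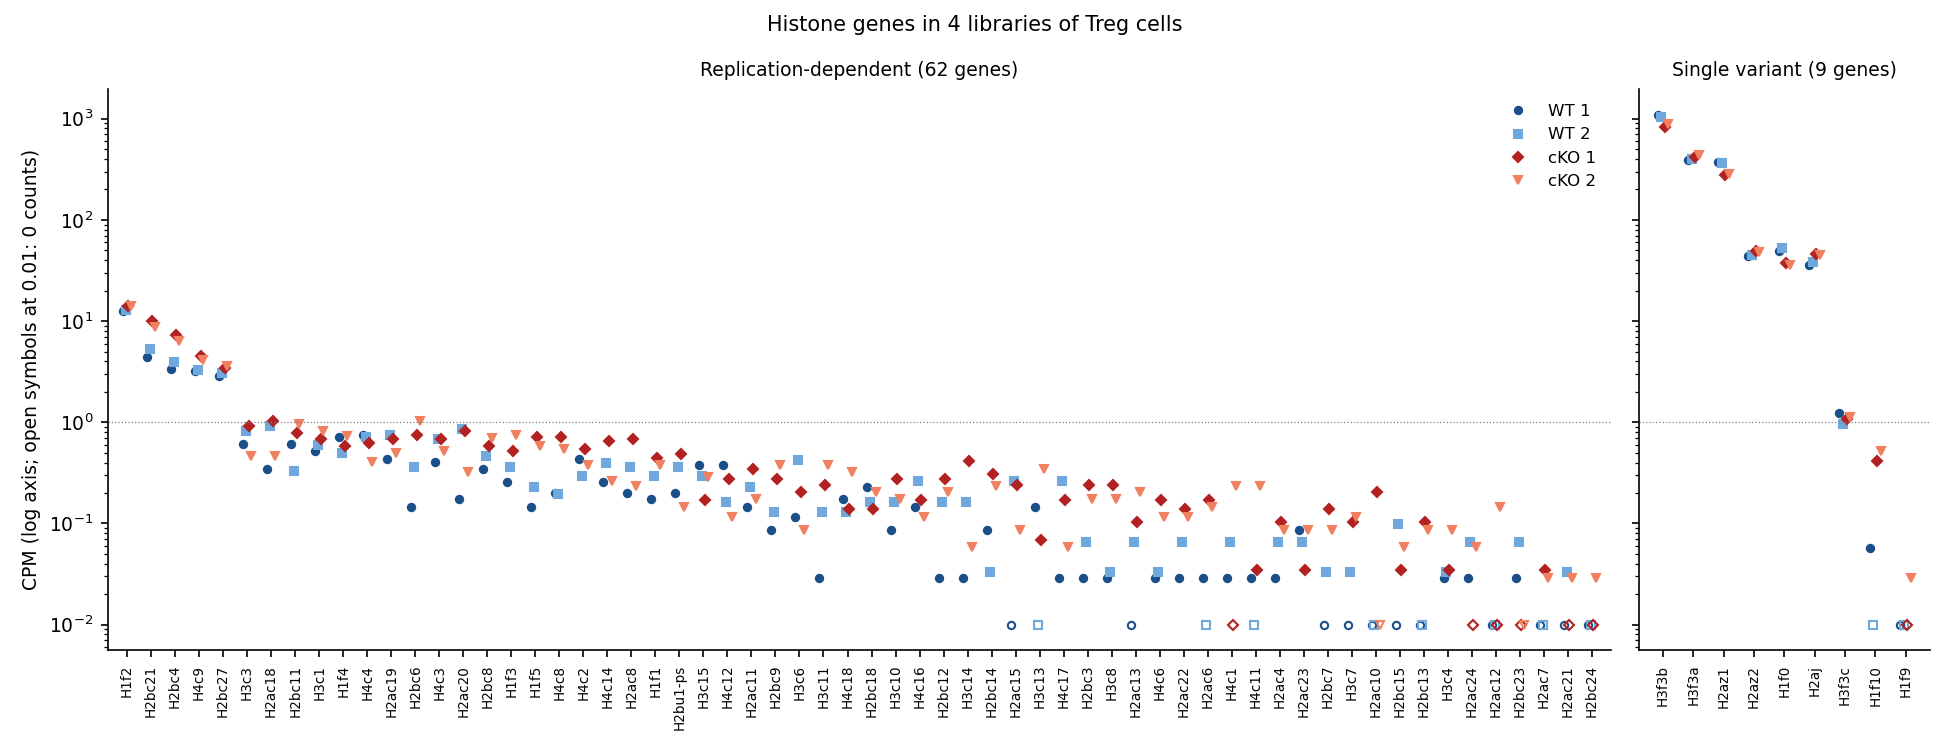
CPM of each histone gene (x axis, ordered by mean) in each library (symbols) on a log axis, with 0 counts drawn as open symbols at 0.01. Of 62 replication-dependent genes, 5 lie above the dotted line at 1 CPM in the mean, and of 9 single variant genes, 7 do.

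Levels were also set beside how the annotated transcript ends. Every replication-dependent gene at 1 CPM or above had a model that runs past the stem-loop or holds none. Most replication-dependent genes with such models stayed below 1 CPM. In 21 replication-dependent genes the GENCODE model ends within 100 bases of the stem-loop, and none of them reached 1 CPM (highest 0.704). In 21 others the model runs at least 100 bases past it, and 3 of these reached 1 CPM, H1f2, H2bc27 and H4c9, while 18 did not. The models of H2bc21 and H2bc4 hold no stem-loop in the first 100 bases after the stop and extend 2192 and 742 bases past the stop, and both reached 1 CPM. The other 2 genes without a stem-loop, H2bc23 and H2bc24, did not. None of the 16 genes whose model stops before a stem-loop could lie, or that have no GENCODE model, reached 1 CPM. The median per kb was not higher for models running past the stem-loop (0.240 CPM per kb) than for those ending near it (0.352). These levels are descriptions, and longer models also collect more reads per gene.

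**Figure D2:**
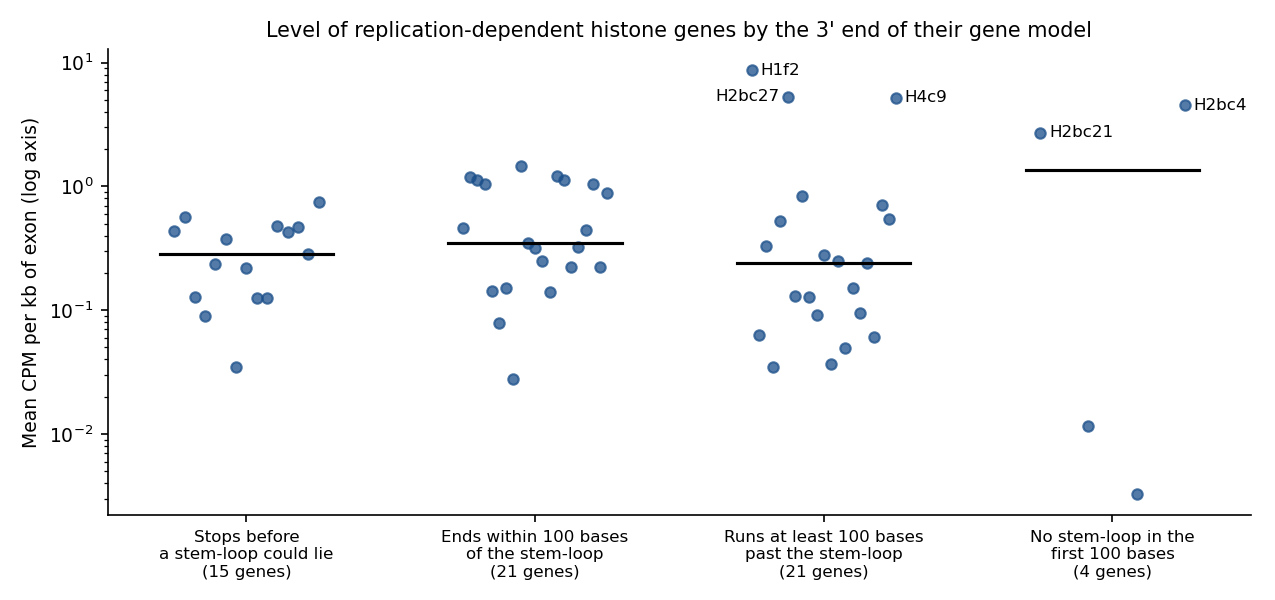
Mean CPM per kb of exon (log axis) of 61 replication-dependent genes with a GENCODE model, grouped by where the model ends relative to the stem-loop (points are genes, bars are medians). The 5 labelled genes are those at 1 CPM or above, and none of them sits in the 2 groups on the left.

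In the comparison of cKO with WT, the replication-dependent histone sum was higher and the single variant histone sum lower. The replication-dependent genes summed to 36 and 41.7 CPM in WT and 58.1 and 52.5 CPM in cKO. The groups did not overlap, and the cKO mean was 1.42 times the WT mean (38.8 ± 4.07 against 55.3 ± 3.98 CPM, SD, n = 2). The single variant genes summed to 1995 and 1945 CPM in WT and 1655 and 1742 in cKO, a ratio of 0.862 (1970 ± 35.8 against 1698 ± 61.1 CPM, SD, n = 2). That fall was carried by H3f3b (mean 1071 CPM in WT and 859 in cKO) and H2az1 (367 and 279). Of the 9 single variant genes, 6 had a higher mean in cKO and 3 a lower one. The sums were not tested, since an exact 2-sided permutation of 2 against 2 libraries cannot go below p = 0.333. In bulk RNA, a change in the number of cells that express a gene and a change in RNA per cell cannot be told apart. Since the single variant genes are so much more abundant, all 72 genes together summed to 2031, 1987, 1713 and 1794 CPM in WT 1, WT 2, cKO 1 and cKO 2. Those sums are 0.175% to 0.198% of the counts of a library.

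Among the replication-dependent families, H2B had the highest ratio of cKO to WT. H2B genes summed to 12.4 and 14.6 CPM in WT and 24.9 and 22.9 in cKO, a ratio of 1.77, and 1.55 without H2bc21 and H2bc4. H3 genes summed to 1.96, 2.69, 3.37 and 2.98 CPM in WT 1, WT 2, cKO 1 and cKO 2, a ratio of 1.37. H4 genes summed to 6.08, 6.53, 8.70 and 7.41 CPM, a ratio of 1.28, and H1 genes to 14.0, 14.2, 16.5 and 16.5 CPM, a ratio of 1.17. In these 4 families both cKO libraries lay above both WT libraries. H2A genes were the exception, at 1.5 and 3.74 CPM in WT and 4.61 and 2.66 CPM in cKO, and there the groups overlapped. No test between families was run, so their order is a description.

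**Figure D3:**
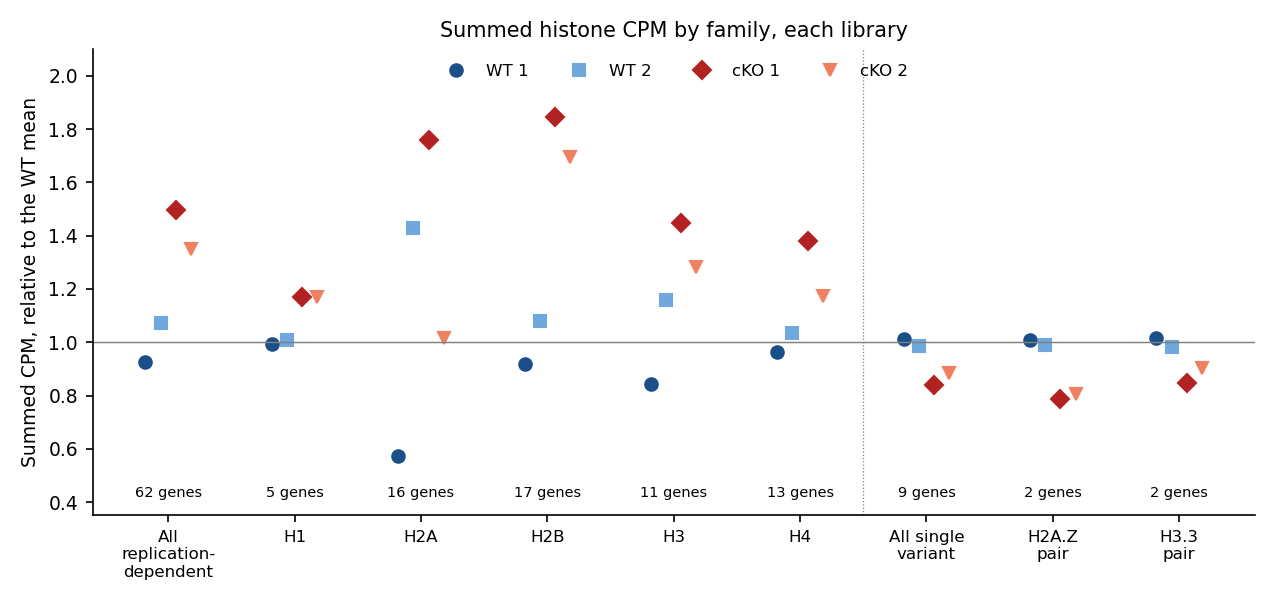
Summed CPM of each histone family in each library, divided by the mean of the 2 WT libraries. The cKO symbols lie above both WT symbols for H1, H2B, H3, H4 and all replication-dependent genes, overlap with WT for H2A, and lie below both for the single variant sums.

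Of the 62 replication-dependent genes, 24 passed the filter on low counts and entered the edgeR quasi-likelihood test over 13861 genes. A gene near the filter can pass through the group in which it is high, so counts over the 24 describe the tested genes and not all 62. Among the calls below, H2bc6, H1f5 and H4c8 would not have passed on the WT libraries alone. In the test, 5 of 24 were called higher in cKO (20.8%, against 16.5% of all genes tested), 0 lower (against 15.1%) and 19 not called. Calls in either direction made up 31.6% of all genes tested, so a share of calls near these values says nothing about histone genes. Both cKO libraries lay above both WT libraries in 13 of the 24 (35.1% of all genes tested) and below in 1 (30.9%). For the 38 under the filter these counts were 18 above and 2 below, against 15.3% and 11.6% of the 6976 genes under the filter. The median log2 fold change over the 24 was 0.42, beside 0.00 over all genes tested. The 38 genes under the filter summed to 2.48 and 3.81 CPM in WT and 5.6 and 5.5 CPM in cKO.

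The best measured calls were H2bc21 and H2bc4, which reached 1 CPM and whose models hold no stem-loop in the first 100 bases after the stop. H2bc21 (chromosome 3, 96221072 to 96223738, plus strand) encodes the H2B variant H2BE, known from olfactory neurons. It measured 4.38 and 5.35 CPM in WT and 10 and 8.75 CPM in cKO, which is a log2 fold change of 0.95 (SE 0.15, adjusted p = 0.00835 by edgeR). The WT and cKO values did not overlap. The divergent gene H2bc4 (chromosome 13, 23684199 to 23692480, plus strand), an H2B gene of the Hist1 cluster, measured 3.34 and 3.90 CPM in WT and 7.29 and 6.28 in cKO. Its log2 fold change was 0.91 (SE 0.16, edgeR adjusted p = 0.0102), and the groups were again apart. Leaving out WT 1 ended the call of H2bc4 (adjusted p = 0.0558, log2 fold change 0.79). Without these 2 genes the other 60 replication-dependent genes summed to 28.2, 32.5, 40.8 and 37.4 CPM in WT 1, WT 2, cKO 1 and cKO 2, a ratio of 1.29.

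The other 3 calls rest on few reads. H1f5 and H4c8 reached the filter's minimum count of 10 only in the cKO libraries, and H2bc6 in those and in WT 2. None of the 3 would have entered the test on its WT libraries alone, so the calls depend on the group in which the genes are high. H2bc6 (chromosome 13, 23583670 to 23621124, minus strand), the gene whose octamer is shown above, had 5 and 11 counts in WT and 22 and 36 in cKO, or 1.86 on the log2 scale (SE 0.47, adjusted p = 0.0308 by edgeR). Its model shares 496 exon bases on the same strand with H1f4, which had 25 and 15 counts in WT and 17 and 25 in cKO and did not pass (adjusted p = 0.869). How reads over shared exons were assigned is not given in the sources used here. H1f5, a linker histone gene, had 5 and 7 counts in WT and 21 and 20 in cKO (log2 fold change 1.79, SE 0.40, edgeR adjusted p = 0.0222). H4c8, an H4 gene with the stem-loop printed above, had 7 and 6 counts in WT and 21 and 19 in cKO (log2 fold change 1.65, SE 0.38, edgeR adjusted p = 0.0229). In each of the 3 genes both cKO libraries lay above both WT libraries. DESeq2 ended all 3 calls, with adjusted p of 0.153 for H2bc6, 0.237 for H1f5 and 0.282 for H4c8. Leaving out any of the 4 libraries ended the calls of H1f5 (adjusted p 0.0672 to 0.147) and H4c8 (0.0843 to 0.157). The call of H2bc6 ended without WT 1, cKO 1 or cKO 2 (0.0640 to 0.160) and held without WT 2 (0.0375, log2 fold change 2.62). The ratio of counts, scaled to library size, was 3.71 for H2bc6 (95% exact interval 2.11 to 6.92), 3.5 for H1f5 (1.81 to 7.32) and 3.15 for H4c8 (1.65 to 6.42). These intervals cover counting error only. Core histone genes share long stretches of sequence, and reads that fit several copies could be split or dropped in counting, so values of single cluster genes are uncertain.

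The most abundant replication-dependent gene, H1f2, was not called. It measured 12.7 and 12.8 CPM in WT and 14.2 and 14.1 CPM in cKO (log2 fold change 0.15, SE 0.08, adjusted p = 0.217). H1f3, another linker histone gene, had 9 and 11 counts in WT and 15 and 26 in cKO, and H1f1 had 6 and 9 against 13 and 13, with adjusted p of 0.0924 and 0.213. Neither passed, although in both the groups did not overlap. H4c9, the highest H4 gene, measured 3.23 and 3.31 CPM in WT and 4.50 and 4.11 CPM in cKO (log2 fold change 0.40, SE 0.15, adjusted p = 0.0977). Its groups were apart, and it was not called. H2bc27, the Hist3 gene for H2B, measured 2.88 and 3.05 CPM in WT and 3.47 and 3.56 CPM in cKO (adjusted p = 0.292). H2bc11 had 21 and 10 counts in WT and 23 and 33 in cKO, and H2bc8, the second H2B gene with its octamer shown, had 12 and 14 against 17 and 24, with adjusted p of 0.130 and 0.187. The remaining H4 genes named here had mixed directions. H4c4 had 26, 22, 18 and 14 counts in WT 1, WT 2, cKO 1 and cKO 2, with both cKO libraries below both WT libraries (log2 fold change -0.54, SE 0.33, adjusted p = 0.288), and H4c3 had 14, 21, 20 and 18 (adjusted p = 0.835).

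The 4 H2A genes tested had groups that overlapped. H2ac20 had 6 and 26 counts in WT and 24 and 11 in cKO, and H2ac18 had 12 and 28 against 30 and 16. H2ac8 had 7, 11, 20 and 8 counts and H2ac19 had 15, 23, 20 and 17 in WT 1, WT 2, cKO 1 and cKO 2. In all 4 genes, WT 2 and cKO 1 were the high libraries. The adjusted p of these 4 genes was 0.917 for H2ac20, 0.827 for H2ac18, 0.490 for H2ac8 and 0.994 for H2ac19. Red cell and platelet transcripts took the opposite order over the same libraries, with a list of 11 such genes at 672, 243, 185 and 522 CPM. Other genes also split the libraries this way. Csf1r, a macrophage gene, took the H2A order (92, 151, 134 and 84.1 CPM), and Ctla4, of the Treg list, the opposite one (1127, 741, 645 and 1002 CPM). The part of any of these in the H2A values was not tested. Both cKO libraries lay above both WT libraries in 6 of 11 H3 genes and 5 of 16 H2A genes, most of them under the filter. They lay below in 1 H3 gene and 0 H2A genes. Over all genes, the shares above were 35.1% of those tested and 15.3% of those under the filter. The shares below were 30.9% and 11.6%. Of the H3 genes, H3c1 had 18, 18, 20 and 28 counts, with the groups apart but not called (adjusted p = 0.324), and H3c3 had 21, 25, 27 and 16 (adjusted p = 0.954). H3c15 had 13, 9, 5 and 10 counts and H3c6 had 4, 13, 6 and 3, and neither was tested.

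**Figure D4:**
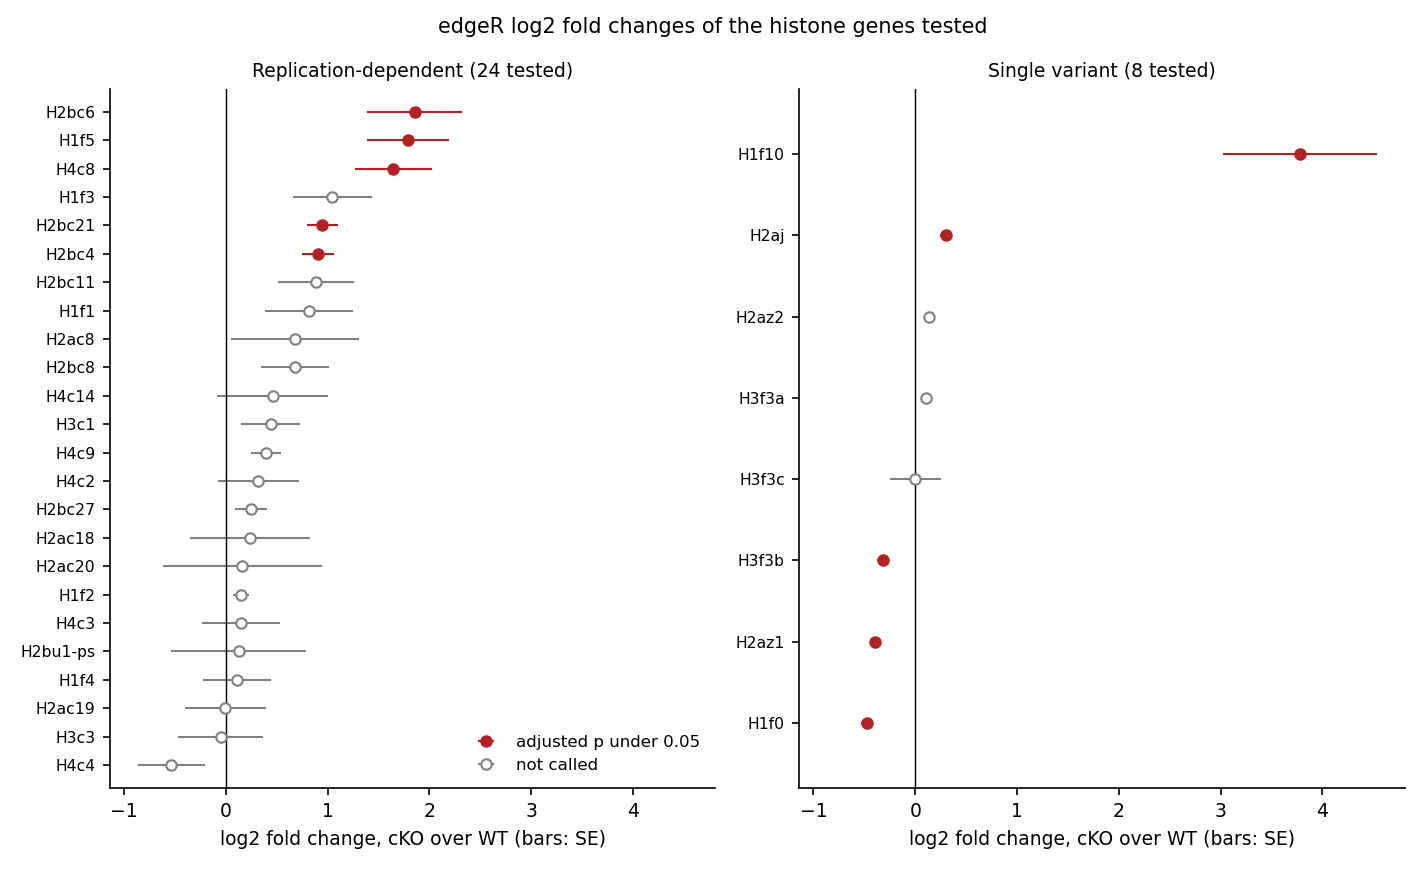
Log2 fold change of cKO over WT (x axis) with its SE for the 24 replication-dependent and 8 single variant genes tested, filled where the edgeR adjusted p was under 0.05. The 5 replication-dependent calls all lie to the right of 0, and the single variant calls lie on both sides, 2 to the right and 3 to the left.

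Many H2A and H2B genes stand head to head, with starts close together, and 10 such pairs had both genes in the table, with starts 163 to 267 bases apart. In 6 of the 10 the H2B gene had more counts than its H2A partner. The widest difference was in the pairs of the 2 best measured H2B genes. H2bc21 had 152, 163, 292 and 302 counts in WT 1, WT 2, cKO 1 and cKO 2, while H2ac20, whose start is 191 bases away, had 6, 26, 24 and 11. The order of the libraries for H2bc21 was thus not that of H2ac20. H2bc4 had 116, 119, 212 and 217 counts, while H2ac6, 239 bases away and with the octamer window shown above, had 1, 0, 5 and 5. Counts over the 2 genes of a pair are not scaled for length.

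The single variant genes divided between higher and lower, and in the H2A.Z and H3.3 pairs the gene with more counts in WT fell while its partner was not called. Of 9 genes, 8 were tested, with 2 called higher (25.0%, against 16.5% of all genes tested), 3 lower (37.5%, against 15.1%) and 3 not called. With 8 genes these shares describe the class and nothing more. H2az1 (chromosome 3, 137864487 to 137866922, plus strand) encodes the H2A.Z variant found at promoters. It measured 372 and 362 CPM in WT and 275 and 282 CPM in cKO, or -0.40 on the log2 scale (SE 0.05, adjusted p = 0.00512 by edgeR). Each cKO library was below each WT library. Its call was kept when each library was left out, with adjusted p of at most 0.0252 over the alternatives that gave a p. H2az2, the second H2A.Z gene, measured 43.9 and 44.9 CPM in WT and 49.1 and 48.4 CPM in cKO. The groups did not overlap, but it was not called (log2 fold change 0.14, SE 0.05, adjusted p = 0.0952). The pair summed to 415, 407, 324 and 331 CPM, a ratio of 0.796.

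H3f3b and H3f3a encode the same H3.3 protein, the H3 variant placed at active genes. H3f3b (chromosome 11, 116021961 to 116026039, minus strand) was the most abundant histone gene. It measured 1100 and 1042 CPM in WT and 828 and 890 CPM in cKO (log2 fold change -0.32, SE 0.06, edgeR adjusted p = 0.0128), and the groups were apart. Leaving out WT 1 (adjusted p = 0.0663) or cKO 1 (adjusted p = 0.0730) ended the call. H3f3a measured 394 and 404 CPM in WT and 419 and 438 CPM in cKO (log2 fold change 0.10, SE 0.05, adjusted p = 0.183), which did not pass. H3f3a shares 638 exon bases with the antisense gene Gm17275, and the use of strand in counting is not given in the sources used here. The pair summed to 1494 and 1446 CPM in WT and 1246 and 1328 CPM in cKO, a ratio of 0.876. H3f3c, listed by GENCODE as a processed pseudogene, had 43, 29, 31 and 39 counts (adjusted p = 0.999), and reads of the H3.3 genes could be assigned to it.

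H1f0 encodes H1.0, the linker histone known from cells that have stopped dividing. It measured 49.2 and 52.2 CPM in WT and 37.5 and 35.6 CPM in cKO, or -0.47 on the log2 scale (SE 0.06, adjusted p = 0.00549 by edgeR). The WT libraries were the high ones, and the call was kept when each library was left out. H2aj, an H2A variant gene, measured 35.6 and 38.3 CPM in WT and 45.6 and 45.3 CPM in cKO (log2 fold change 0.30, SE 0.06, edgeR adjusted p = 0.0154). The groups were apart, but the call ended under DESeq2 (adjusted p = 0.0628) and without WT 1, cKO 1 or cKO 2 (0.0675 to 0.0852). H1f10, a linker histone variant gene, had 2 and 0 counts in WT and 12 and 18 in cKO (edgeR adjusted p = 0.0156). It passed the filter on low counts only through the cKO libraries, where it is high, so it could enter the test only by differing. The ratio of its counts, scaled to library size, was 15.4, with a 95% exact interval of 3.90 to 133 that covers counting error only. Its call ended under DESeq2 (adjusted p = 0.0697) and without WT 2 (adjusted p = 0.0581), and without cKO 2 it did not pass the filter. It shares 213 exon bases with Gm5577 on the opposite strand.

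Ratios within a library do not depend on how libraries are scaled. H2az1 had 8.47 and 8.07 counts for each count of H2az2 in WT and 5.61 and 5.83 in cKO. H3f3b had 2.79 and 2.58 counts for each count of H3f3a in WT and 1.98 and 2.03 in cKO. In both pairs the ratio was lower in each cKO library than in each WT library. Between linker histones, H1f0 had 3.87 and 4.08 counts for each count of H1f2 in WT and 2.64 and 2.53 in cKO. These ratios show unequal change of the genes of a pair and not which of them changed.

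**Figure D5:**
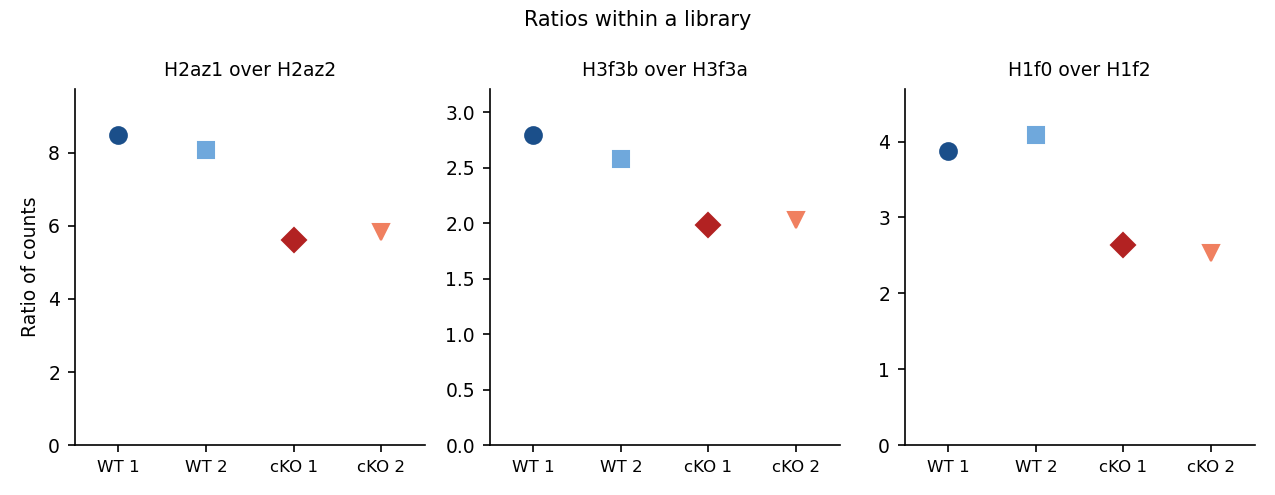
Ratio of counts (y axis from 0) of H2az1 to H2az2, H3f3b to H3f3a and H1f0 to H1f2 in each of the 4 libraries. In each panel both cKO libraries lie below both WT libraries.

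Set against each other, the replication-dependent sum was 1.80% and 2.14% of the single variant sum in WT and 3.51% and 3.01% in cKO, a ratio of 1.65 between the group means. The groups did not overlap, and this was not tested. The direction of the 2 classes thus differed in the sums, while the classes' medians of the log2 fold change over the tested genes were 0.42 and 0.05. The sign of the second median depended on the genes and libraries included.

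Genes that act with the histones were taken from lists of their pathways. Of 47 genes of DNA replication and S phase, 33 were called higher and 1 lower (against 16.5% and 15.1% of all genes tested), with a median log2 fold change of 0.38. Rrm2, a subunit of ribonucleotide reductase, measured 39.6 and 47.9 CPM in WT and 82.4 and 75.8 CPM in cKO (log2 fold change 0.86, edgeR adjusted p = 0.00508). Uhrf1, which keeps DNA methylation through replication, measured 43.3, 51.6, 80.0 and 76.3 CPM in WT 1, WT 2, cKO 1 and cKO 2. Pcna, the sliding clamp of the replication fork, was named for its role and was not called, at 268, 261, 251 and 262 CPM. All 26 genes of mitosis were called higher (against the same 16.5%), with a median log2 fold change of 0.91, among them Mki67, a proliferation marker, at 167 and 198 CPM in WT and 375 and 336 CPM in cKO. Relative to the summed CPM of the S-phase list, the replication-dependent sum was 1.80% and 1.95% in WT and 2.29% and 2.11% in cKO. Relative to the mitosis list it was 4.92% and 4.67% in WT and 3.56% and 3.54% in cKO. Relative to the S-phase sum the replication-dependent sum was thus higher in cKO, and relative to the mitosis sum it was lower. The groups did not overlap in either case. Without H2bc21 and H2bc4 the replication-dependent sum was 28.2, 32.5, 40.8 and 37.4 CPM in WT 1, WT 2, cKO 1 and cKO 2. The S-phase sums were 2002, 2138, 2536 and 2489 CPM, and relative to these the groups then overlapped.

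Of 28 genes for the synthesis and processing of histone mRNA, 3 were called higher and 1 lower (against 16.5% and 15.1% of all genes tested), with a median log2 fold change of 0.04. Cdk2, the kinase that activates histone transcription at the start of S phase, measured 43.3 and 47.6 CPM in WT and 73.0 and 68.0 CPM in cKO (log2 fold change 0.63, SE 0.07, edgeR adjusted p = 0.00461). Lsm11, a component of the U7 particle that cuts the mRNA behind the stem-loop, measured 14.7, 15, 20.4 and 19.2 CPM (adjusted p = 0.0124). Eri1, an exonuclease that trims the stem-loop end, measured 64.5, 67.2, 77.0 and 75.2 CPM (adjusted p = 0.0286). Tut4, a uridylyltransferase of the same decay step, was the gene called lower, at 185 and 175 CPM in WT and 153 and 148 CPM in cKO (adjusted p = 0.0177). Slbp, the stem-loop binding protein, was named for its role and was not called, at 78.8, 79.3, 79.2 and 83.6 CPM, nor was Npat, the coactivator of the histone clusters, at 46.0, 41.1, 44.7 and 44.3 CPM. RNAs without a poly(A) tail other than histone mRNAs were not analysed here.

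Of 37 histone chaperones and factors that load variants, 16 were called higher and 2 lower (against 16.5% and 15.1% of all genes tested), with a median log2 fold change of 0.06. Asf1b, a chaperone of new H3 and H4, measured 17.7 and 20.3 CPM in WT and 32.1 and 30.9 CPM in cKO (log2 fold change 0.73, edgeR adjusted p = 0.00512). Npm3, a nucleoplasmin family member, measured 54.8, 53.5, 69.8 and 71.4 CPM (adjusted p = 0.00549). The larger of the falls was in Spty2d1, a yeast Spt2-related H3 and H4 chaperone, at 408 and 339 CPM in WT and 147 and 186 CPM in cKO (log2 fold change -1.16, SE 0.14, adjusted p = 0.00512). The loaders of H3.3 and H2A.Z named next were picked for their role. Ubn1, of the HIRA complex, was the second gene called lower, at 199, 189, 167 and 169 CPM (adjusted p = 0.0287), while Hira (72.5, 71.5, 72.6 and 73.5 CPM), Daxx (105, 102, 103 and 105 CPM) and Atrx were not called. Among factors for H2A.Z, Srcap, Ep400 and Vps72 were not called. Znhit1, a subunit of the SRCAP complex that loads H2A.Z, was called higher at 13.7, 15.4, 18.6 and 19.0 CPM (log2 fold change 0.38, adjusted p = 0.0255). Anp32e, a chaperone that removes H2A.Z, was also called higher at 193, 202, 231 and 226 CPM (log2 fold change 0.21, adjusted p = 0.0247).

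Many markers of other cell types moved with the groups. Beside the counts of calls below, 16.5% of all genes tested were called higher and 15.1% lower. In lists this short, a count near those shares says nothing about a cell type. A list of 16 neutrophil genes, 15 of them called higher, summed to 84.9 and 218 CPM in WT and 689 and 1480 CPM in cKO, and 7 basophil and mast cell genes, all called higher, to 2.77, 6.76, 26.2 and 46.3 CPM. Genes of CD8 T and NK cells (8 of 9 called higher) summed to 141 and 168 CPM in WT and 247 and 262 CPM in cKO, and those of dendritic cells (5 of 8) to 207 and 220 against 308 and 305 CPM. Plasma cell genes (4 of 6) summed to 461 and 551 CPM in WT and 710 and 716 CPM in cKO, B cell genes (2 of 8) to 113 and 137 against 150 and 264 CPM, and macrophage and monocyte genes (2 of 11) to 656 and 891 against 1112 and 923 CPM. In these lists both cKO sums lay above both WT sums. The macrophage and monocyte sum was carried by the 2 called genes, Lyz2 (261 and 286 CPM in WT, 584 and 544 in cKO) and Ccr2, while 8 of the 11 had a lower mean in cKO, none of them called, and the list's median log2 fold change was -0.39. Of the red cell and platelet list, whose sums stand with the H2A genes above, 9 were tested, with 1 higher and 1 lower. Of the 8 genes that define Treg cells, 1 was called higher and 4 lower, and all 8 were detected in every library. The only marker genes at 0 in a library were Klf1 and Pf4, of the red cell and platelet list. The part of other cell types in the histone values was not tested.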

How the data were processed

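Read counts per gene, as whole numbers, were deposited by the authors in 1 table for 4 libraries. Mapping was to mm10, per the submitters' processing notes. Not given in the sources used here are the aligner, the counter and how it treats reads that fit several genes, the annotation, the strand setting and the kit. Members and gene lists were chosen with earlier results of these data known, and no set test was run. The fit used edgeR 4.0.16 in R 4.3.3 on all genes: filterByExpr (minimum count 10, minimum total 15, leaving 13861), TMM scaling, quasi-likelihood F-test (glmQLFit, glmQLFTest) on group alone, 2-sided, Benjamini-Hochberg adjustment, threshold 0.05. SE is the log2 fold change over the root of F. The test was also run on simulated counts in which far fewer genes changed than were called here. That run does not check the calls in these data. Genes were named by rule: all single variant and testis genes, in each cluster family the 4 highest by mean CPM and the 3 smallest p, every call of at least 2-fold, and up to 4 genes per other list. Genes outside the rule were picked for their role or after their values were seen (the genes with calls below 2-fold, divergent partners and genes whose octamer is printed). Alternatives were RLE and upper-quartile scaling, library totals alone, DESeq2 1.42.0, limma-voom (limma 3.58.1), no filter, 5 CPM in 2 libraries, protein-coding genes only, thinning, other thresholds, a replicate block and leaving out each library. Coordinates (72 of 72 genes, by gene number) and promoters (66) came from RefSeq GRCm38.p6 and transcripts (71) from GENCODE M21, both the assembly of mm10.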

Additional observations from a re-analysis of the deposited data

How the results depend on the processing

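All values below compare cKO with WT. The number of genes called was 4380, and 2876 with DESeq2, 2292 with a replicate block, 1124 at 2-fold and 1869 to 2747 when 1 library was left out. Replication-dependent genes called higher numbered 5, and 2 with DESeq2, 2 with the 5 CPM filter, 2 with the replicate block, 3 at 2-fold and 1 to 3 with 1 library left out. Single variant genes called higher numbered 2, and 0 with DESeq2, 1 with the 5 CPM filter, 0 with the replicate block, 1 at 2-fold and 0 to 1 with 1 library left out. Those called lower numbered 3, and 2 with the replicate block, where the call of H3f3b ended, 0 at 2-fold and 2 to 3 with 1 library left out. The median log2 fold change of the replication-dependent genes was 0.418, and 0.813 with DESeq2, 0.813 with no filter, 0.909 with the 5 CPM filter and 0.260 to 0.778 with 1 library left out. That of the single variant genes was 0.051, and 0.097 with library totals alone, 0.094 with no filter, -0.105 with the 5 CPM filter and -0.047 to 0.101 with 1 library left out. The latter was also -0.027 without WT 2, so its sign depends on the setting. Both DESeq2 and no filter fit genes of few counts that the main filter removes. Of the replication-dependent genes, only H1f2, H2bc21 and H2bc4 reached 5 CPM in 2 libraries. H2bc21 and H2bc4 would not have done so on the WT libraries alone. The median and the calls with the 5 CPM filter thus depend on the group in which these genes are high. The replication-dependent sum ratio was 1.42, with an SD between replicates of 0.181. Every alternative that gave a value stayed within that SD of 1.42. The SD comes from the same 4 libraries, so leaving out 1 of them could hardly move the ratio beyond it. This is thus no check of the ratio.

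Some genes that were not called changed sign. H2ac19 gave 0.021 with upper-quartile scaling, 0.039 with library totals alone, 0.030 with limma-voom, 0.010 with the replicate block, 0.006 with the crossed block and -0.364 to 0.434 with 1 library left out (0.223 without cKO 2). H3f3c gave 0.028, 0.046, 0.009, 0.069 and 0.012 with upper-quartile scaling, library totals, limma-voom, thinning and the replicate block, and -0.174 to 0.206 with 1 library left out (0.034 without cKO 1). H3c3 gave 0.099 with thinning and -0.615 to 0.384 with 1 library left out (0.179 without WT 2). With 1 library left out, H1f4 ranged from -0.133 to 0.414 (-0.064 without cKO 2), H2ac18 from -0.427 to 1.081 (-0.319 without WT 1), H2ac20 from -0.651 to 1.675 (-0.604 without WT 1), H2ac8 from -0.263 to 1.293 and H4c3 from -0.197 to 0.569 (-0.058 without cKO 1). The cause of these changes was not tested. Where a group was left with 1 library, that library is assumed to vary like the other group.

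Same-numbered libraries did not deviate together (correlation -0.323 across 13861 genes). With 2 libraries in a group, this cannot show whether the numbers pair the libraries. A crossed replicate block, chosen after seeing the data, called 6713 genes, 8 of them replication-dependent and higher. Depth limits most replication-dependent genes, since 14 of 62 had under 10 counts in all and 38 were not tested.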
